A study of Mus musculus with 6 samples.

Results

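Collagen chains were measured as RNA 3′ ends in sorted stomach fibroblasts. The genes described are all rows of the deposited table whose symbol has the form of a collagen alpha chain, Col followed by a number, a and a number. This rule took 41 of 14228 genes, and 31 of the 41 had enough counts to be tested. They were sorted by textbook class into fibrillar chains (11 genes), network-forming chains (9), fibril-associated chains with interrupted triple helices, or FACIT (7), beaded-filament chains of collagen VI (6), transmembrane chains (3), multiplexins (2), the anchoring-fibril chain Col7a1 (1) and others (2). All mice carried the triple-transgenic iLgr5;GLI2A alleles and were 8 weeks old. In this published model tamoxifen and doxycycline together switch on an active GLI2 in cells that express Lgr5, a marker of gastric stem cells. Cancer-associated fibroblasts (CAF, 3 libraries) came from stomachs of mice given tamoxifen in corn oil by gavage and then doxycycline in chow and, at first, in sucrose water. Normal fibroblasts (3 libraries) came from stomachs of mice of the same genotype given corn oil and no doxycycline, so drug and tumour cannot be told apart. Cells were sorted as live, podoplanin-positive and free of CD31, CD45 and EpCAM. CAF libraries 1, 2 and 3 held cells of 1, 2 and 2 mice and normal libraries 1, 2 and 3 cells of 1, 1 and 2 mice, pooled where there were 2. The p-values measure the spread between these 6 libraries.

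Collagens are proteins of 3 chains wound into a triple helix, and fibroblasts are their main source in connective tissue. Fibrillar collagens give tissue its tensile strength, FACIT collagens coat and link those fibrils, and network collagens such as type IV form the sheets of basement membranes. Collagen VI makes fine beaded filaments around cells, multiplexins lie next to basement membranes, and transmembrane collagens sit in the cell surface. In tumours with abundant stroma, collagen deposition by fibroblasts is a known feature.

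Library totals ran from 644522 to 6422568 counts in CAF and from 768420 to 3259644 in normal. Levels are given as CPM, counts divided by the library total (normalized by the trimmed mean of M-values) and multiplied by 1e+06. In these units 1 count was worth 0.135 to 1.46 CPM. All 15 fibroblast markers outside the collagens had counts in every library, and together they took 1.48% to 3.80% of the CAF counts and 0.964% to 4.51% of the normal counts. The 15 markers of gastric glands took 0.536% to 0.847% in CAF but 17.5%, 13.8% and 3.98% in normal libraries 1, 2 and 3. A lower or higher level of a chain in bulk RNA cannot be told apart from fewer or more cells that make it among those sorted. Within CAF, library 1 stood apart: relative to CAF libraries 2 and 3 it was low in genes with AT-rich 3′ ends (Pearson r = 0.49 across 10022 genes, 0.61 across the 31 tested collagen genes, between GC content of the last 500 transcript bases and the log2 difference; genes of 1 library are not independent). The same correlation within the normal group was 0.17, -0.34 and 0.17 for libraries 1, 2 and 3 across all these genes. A GC trend was thus not confined to CAF. Results below are therefore given with the values of each library, and for some chains with a fit that corrects for GC content.

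Collagen RNA took a larger part of the counts in CAF libraries 2 and 3 than in any normal library. Together the 41 genes made up 1.31%, 2.87% and 3.15% of all counts in CAF libraries 1, 2 and 3. The normal libraries, in the same order, gave 0.419%, 0.718% and 1.74%. The means were 2.44% ± 0.994 in CAF and 0.959% ± 0.693 in normal (SD, n = 3 in each), and the exact 95% binomial intervals, which cover counting error only, were no wider than 1.71% to 1.77% (normal library 3). CAF library 1 thus lay below normal library 3, and the groups overlapped. For each count of the fibroblast markers there were 0.885, 0.968 and 0.829 collagen counts in the CAF libraries. In the normal libraries there were 0.435, 0.563 and 0.386, and on this scale the groups did not overlap. The size of this gap depended on Gsn, an actin-binding protein gene that made up 31.6% to 49.9% of the marker counts in normal and 9.61% to 14.1% in CAF (log2 fold change -1.84, edgeR adjusted p = 0.267). Without Gsn, a setting chosen after seeing the data, the ratios were 1.02, 1.07 and 0.964 in CAF and 0.840, 0.823 and 0.772 in normal. The ratio of the group means was then 1.26 in place of 1.94. No test was run on these sums, because the genes in them were chosen with results known.

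The mixture of collagen classes also differed in value between the groups. Collagen VI chains took 5.98%, 7.06% and 9.22% of the collagen counts of the CAF libraries, against 26.7%, 19.4% and 28.8% in the normal ones. Network chains took 21.7%, 12.7% and 10.9% in CAF and 6.34%, 6.72% and 8.33% in normal. For both of these classes no CAF library lay within the range of the normal libraries. Fibrillar chains were the largest class in every library, at 56.2%, 73.0% and 74.0% in CAF and 54.2%, 65.7% and 45.4% in normal, with overlapping ranges. FACIT chains took between 2.93% and 4.67% in CAF and between 3.02% and 4.42% in normal, with overlapping ranges. Shares of 1 total are tied to each other, since a class can only gain where others lose.

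**Figure D1:**
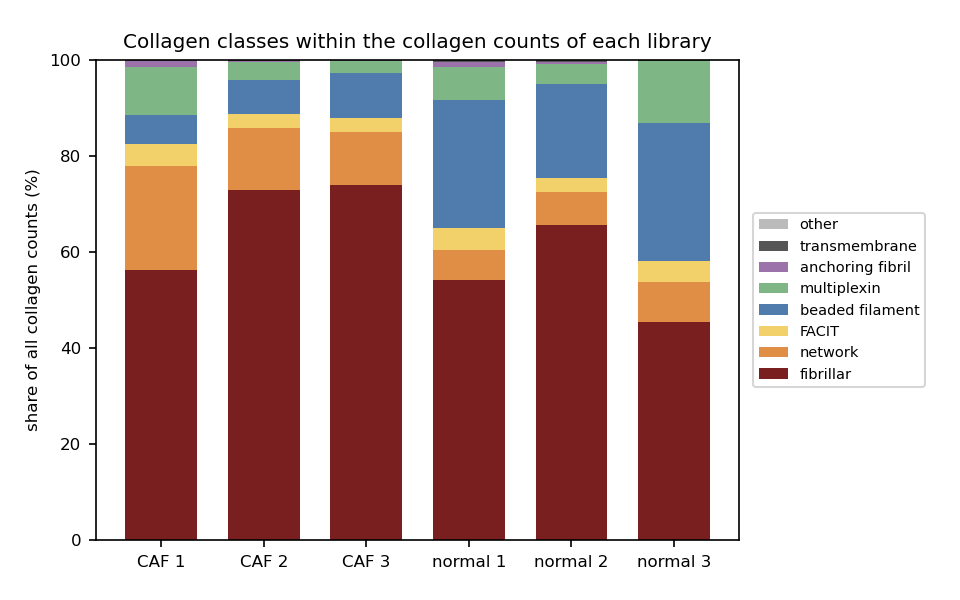
Share of all collagen counts (%, vertical axis from 0) taken by each collagen class in the 6 libraries, 1 stacked bar per library. The blue part (collagen VI) is 5.98% to 9.22% in CAF and 19.4% to 28.8% in normal, and the orange part (network chains) is 10.9% to 21.7% in CAF and 6.34% to 8.33% in normal.

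Of the 31 tested chains, 1 differed between CAF and normal, Col9a2, in the quasi-likelihood test of edgeR, with p-values adjusted by Benjamini and Hochberg's method over 10148 genes (threshold 0.05). That is 3.23% of the chains, against 1.1% of all genes tested in either direction and 0.897% called higher, and 1 call is too few to read as more than the background. The log2 fold change (CAF over normal) was positive for 23 of 31 chains, or 74.2%, against 53.9% of all genes, and its median was 1.09 against 0.06. All 9 tested fibrillar chains had a positive value (median 1.40), as did all 5 FACIT chains (median 2.37) and 5 of 7 network chains (median 1.81). Of the 5 collagen VI chains 4 had a negative value (median -0.53), as had 1 of 2 multiplexins and 1 of 2 transmembrane chains. In 7 of 31 chains every CAF library was above every normal library, against 10.6% of all genes tested, and in 1 chain, Col4a4, every CAF library was below, against 9.35%. For Col8a2 and Col9a2, with few normal counts, the filter on counts allowed no other outcome. Before adjustment 12 chains, or 38.7%, had a p under 0.05, against 15.3% of all genes. Of these 10 were higher in CAF, where 7.37% of all genes were, and Col4a6 and Col17a1 were lower. Medians of the main classes kept their sign without normal libraries 1 and 2, where gland RNA was highest (fibrillar 1.61, network 1.30, FACIT 1.45, collagen VI -1.42). That fit rests on 1 normal library. In it 9 of 11 fibrillar, 7 of 9 network and 6 of 7 FACIT chains were positive, and both multiplexins were negative. Without normal library 3 the collagen VI median was -0.0048.

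**Figure D2:**
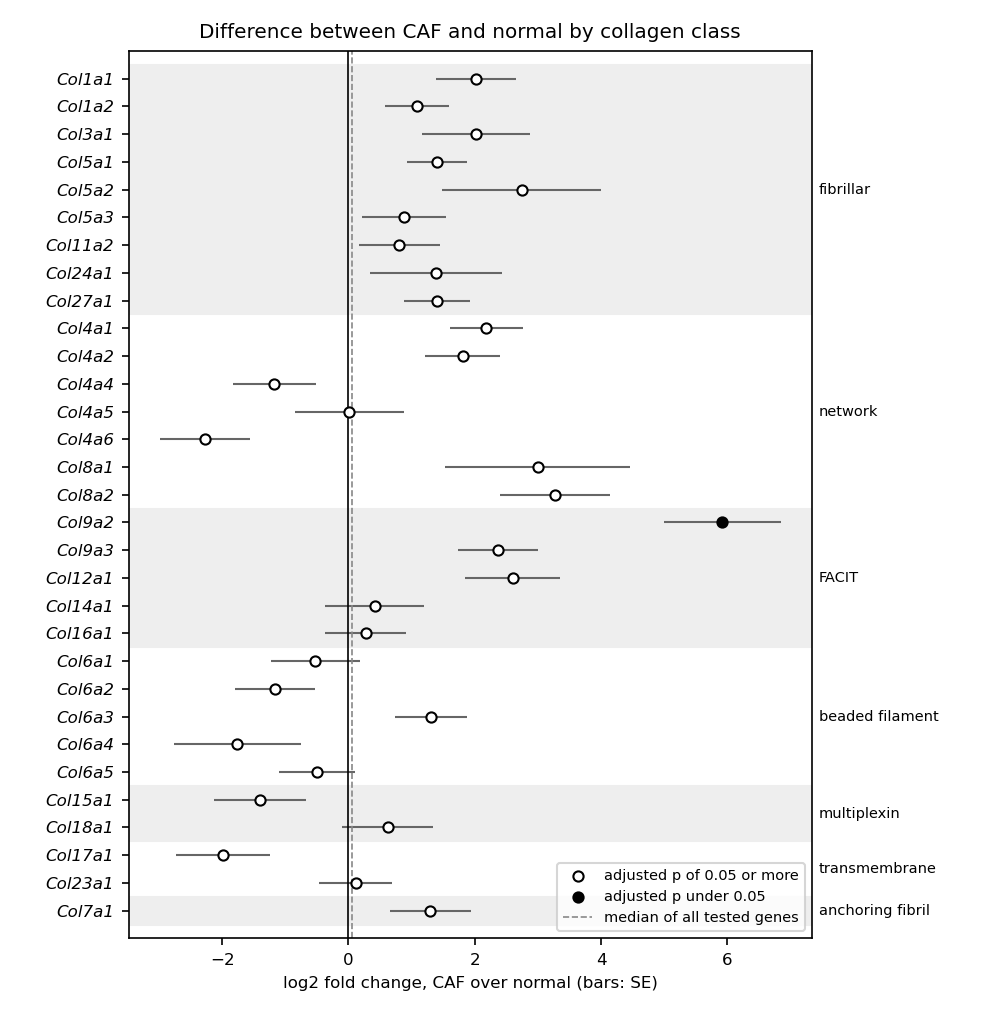
log2 fold change of CAF over normal (horizontal axis) for the 31 tested collagen genes by class, with bars for the approximate standard error; filled points have an adjusted p under 0.05. Col9a2 at 5.92 is the filled point, and the dashed line marks the median of all tested genes, 0.06.

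The number of calls turned on the tool and on single libraries. DESeq2 called 9 of the 41 chains (Col1a1, Col4a1, Col8a2, Col9a2, Col9a3, Col10a1, Col11a1 and Col12a1 higher, Col4a6 lower), where it called 7.28% of all genes with an adjusted p. The authors' deposited table has an adjusted p under 0.05 for 8 of them, all of these except Col11a1, and for 6.37% of its genes. Without normal library 3, edgeR called 10 of 36 tested chains (Col4a1, Col4a2, Col5a1, Col5a3, Col9a2, Col9a3, Col12a1, Col16a1 and Col18a1 higher, Col17a1 lower), and 10% of all genes. Without any other single library, no chain was called.

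**Figure D3:**
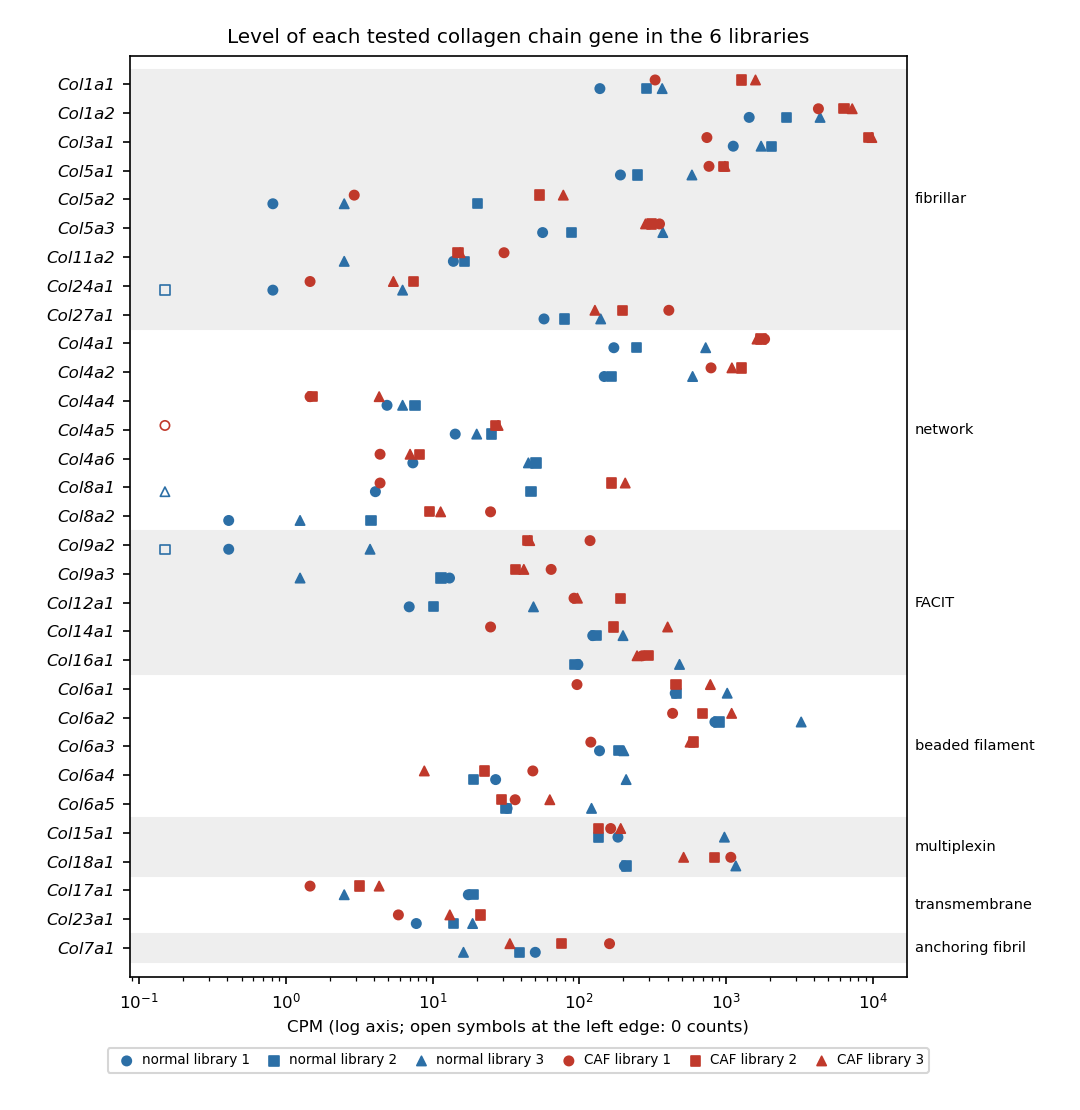
CPM of the 31 tested collagen genes (log axis) in each of the 3 CAF libraries (red) and 3 normal libraries (blue), grouped by class; open symbols at the left edge are libraries with 0 counts. The red and blue points of Col4a1, Col4a2, Col9a2 and Col9a3 do not overlap, and CAF library 1 (red circle) lies far left of the other red points for Col3a1, Col5a2 and Col8a1.

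Among the fibrillar chains, those of collagens I, III and V had higher means in CAF, and none passed the test. Col1a1, the alpha 1 chain of collagen I, was at 329, 1281 and 1591 CPM in the CAF libraries and, again in the order 1 to 3, at 138, 286 and 368 CPM in the normal ones. CAF library 1 lay between the normal libraries, and the log2 fold change was 2.02 ± 0.64 (SE; adjusted p = 0.178 in edgeR). Col1a2, the partner chain of collagen I, was at 4271, 6397 and 7259 CPM in CAF and at 1441, 2602 and 4383 CPM in normal. Its groups overlapped through CAF library 1 and normal library 3. The log2 fold change of Col1a2 was 1.09 ± 0.51 (edgeR adjusted p = 0.369), and 0.78 with GC correction (edgeR adjusted p = 0.569). Col3a1, whose chain forms collagen III of soft and healing tissue, was at 742, 9349 and 9880 CPM in CAF and at 1122, 2053 and 1737 CPM in normal. CAF library 1 was the lowest of all 6 libraries here and the other CAF libraries the highest, and the log2 fold change of 2.02 ± 0.85 had an adjusted p of 0.313 by edgeR. The 3′ end of Col3a1 is among the most AT-rich of the chains (31.4% GC), and with GC correction its log2 fold change was 1.32 (adjusted p = 0.352).

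Col5a1 encodes a chain of collagen V, which nucleates collagen I fibrils. It was at 767, 967 and 985 CPM in CAF and at 191, 250 and 587 CPM in normal. All CAF libraries were above all normal libraries, at a log2 fold change of 1.41 ± 0.47 (adjusted p = 0.210 in edgeR, and 0.013 without normal library 3). Col5a1 had a log2 fold change of 0.69 without normal libraries 1 and 2, and of 1.10 with GC correction (edgeR adjusted p = 0.459). Its partner Col5a2 was at 2.93, 53.4 and 77.9 CPM in CAF and at 0.816, 20.3 and 2.50 CPM in normal (log2 fold change 2.74, adjusted p = 0.362). The third chain, Col5a3, was at 283 to 353 CPM in CAF and at 56.3, 88.7 and 371 CPM in normal, where normal library 3 was above every CAF library. Col27a1, a minor fibrillar collagen known from cartilage, was at 128 to 408 CPM in CAF and 57.5 to 140 CPM in normal (log2 fold change 1.40, adjusted p = 0.260). Col11a2 and Col24a1, further minor fibrillar chains, had log2 fold changes of 0.80 and 1.39 and adjusted p-values of 0.641 and 0.612 by edgeR, and their groups overlapped.

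Ratios between chains were compared within each library, which removes the library's scaling. Of the 4 ratios, 3 are between chains of the same collagen and the other is between collagens III and I. The ratio of Col1a1 to Col1a2 counts was 0.0772, 0.200 and 0.219 in CAF and 0.0961, 0.110 and 0.0840 in normal. CAF libraries 2 and 3 were above, and CAF library 1 below, every normal library, and the log2 difference of 0.64 had p = 0.4 (exact two-sided permutation test, n = 3 in each group, for which the smallest possible p is 0.1). The ratio of Col3a1 to Col1a1 counts was 2.25, 7.30 and 6.21 in CAF and 8.10, 7.16 and 4.72 in normal (log2 difference -0.47, exact permutation p = 0.6). The ratio of Col4a1 to Col4a2 was 2.32, 1.35 and 1.48 in CAF and 1.16, 1.47 and 1.23 in normal (0.38, exact permutation p = 0.2), and that of Col6a1 to Col6a2 differed by 0.10 (exact permutation p = 1). Adjusted over the 4 ratios, the p-values were 0.8, 0.8, 0.8 and 1, and with 3 libraries in each group no ratio could have passed 0.05.

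Among the tested network chains, the 2 chains of the widespread collagen IV and both chains of collagen VIII had higher means in CAF. Lower means were found for Col4a4, Col4a6 and, by a small margin, Col4a5 (18.3 CPM in CAF and 19.9 CPM in normal). Col4a1, a core chain of all basement membranes, was at 1835, 1733 and 1629 CPM in the CAF libraries and at 172, 244 and 728 CPM in the normal libraries. The CAF libraries lay close together and above every normal library, and the log2 fold change was 2.19 ± 0.57 (adjusted p = 0.109 in edgeR). Col4a2, which winds with Col4a1 in the same trimer, was at 792, 1284 and 1098 CPM in CAF and at 148, 166 and 593 CPM in normal. It too was higher in every CAF library, at a log2 fold change of 1.81 ± 0.59 (adjusted p = 0.196 in edgeR). Both passed without normal library 3 (edgeR adjusted p = 0.00614 and 0.00893). Their log2 fold changes ran from 1.82 to 2.99 and from 1.47 to 2.69 with 1 library left out. Without normal libraries 1 and 2, where gland RNA was highest, they were 1.30 and 0.90, below these ranges. Markers of smooth muscle and pericytes, cells that also lay down collagen IV, took 0.1364%, 0.133% and 0.0725% of counts in CAF and 0.0447%, 0.0369% and 0.0729% in normal. These markers did not move together: Myh11, of smooth muscle, fell in CAF (log2 fold change -2.19, edgeR adjusted p = 0.0486), while Actg2 and Kcnj8 were at 1.68 and 2.82 and did not pass. All 10 had counts in both groups, their part in the result was not tested, and endothelial markers took 0.00341% to 0.00629% in CAF and 0.00208% to 0.00399% in normal.

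Col4a1 and Col4a2 are neighbours transcribed away from each other, and their annotated bodies overlap by 22 bases (mm10 chromosome 8, 11198423 to 11312826 on the minus strand and 11312805 to 11449287 on the plus strand). Since the 2 genes had similar fold changes from a common start region, their promoter windows are shown (RefSeq, GRCm38.p6, 250 bases before to 50 after the start, 5′ to 3′ on each gene's strand). Capitals mark 3 motifs searched on both strands, whose matches did not overlap here: the CCAAT box, the GC box core with the letters GGGCGG, and the TATA box with the letters TATAAA. The windows lie at chr8:11312777-11313076 (Col4a1, minus strand) and chr8:11312555-11312854 (Col4a2, plus strand).
Col4a1: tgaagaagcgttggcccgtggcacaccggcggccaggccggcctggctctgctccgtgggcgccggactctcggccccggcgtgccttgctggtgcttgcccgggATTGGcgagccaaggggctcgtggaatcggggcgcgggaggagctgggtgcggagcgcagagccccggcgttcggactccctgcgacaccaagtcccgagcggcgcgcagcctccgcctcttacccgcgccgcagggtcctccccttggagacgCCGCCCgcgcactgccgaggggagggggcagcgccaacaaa
Col4a2: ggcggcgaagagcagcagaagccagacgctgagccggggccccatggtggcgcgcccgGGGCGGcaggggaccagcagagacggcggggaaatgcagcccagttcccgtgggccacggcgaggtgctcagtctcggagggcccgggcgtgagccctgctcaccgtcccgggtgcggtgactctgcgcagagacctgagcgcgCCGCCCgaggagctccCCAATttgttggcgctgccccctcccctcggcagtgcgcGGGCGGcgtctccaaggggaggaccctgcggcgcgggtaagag
The windows share 78 bases. Each holds 1 CCAAT, the first has 1 GGGCGG and the second 3, and neither has TATAAA. The GGGCGG of the first window lies in the shared bases and is the same site as the last of the second. Over all 32851 promoter windows 37.4% hold CCAAT, 35.7% GGGCGG and 13.6% TATAAA, and over the 36 windows of 33 collagen genes 33.3%, 61.1% and 13.9%. The GC content of these windows was 74.0% and 73.7%, against a median of 59.8% over collagen windows and 52.7% over all windows.

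The other collagen IV genes also lie in head-to-head pairs. Col4a6, a chain of specialised basement membranes, was at 4.39, 8.14 and 7.03 CPM in CAF and at 7.34, 50.7 and 45.0 CPM in normal. Normal library 1 lay among the CAF libraries, and the log2 fold change was -2.27 ± 0.72 (adjusted p = 0.177 in edgeR). Col4a5, whose start lies 1308 bases away on the X chromosome, was at 0, 26.9 and 28.0 CPM in CAF and at 14.3, 25.3 and 20.0 CPM in normal, a log2 fold change of 0.02 (adjusted p = 0.998), which turned negative with RLE size factors, DESeq2, GC correction and 5 other fits. Col4a4 was at 1.46 to 4.33 CPM in CAF and 4.90 to 7.60 CPM in normal (log2 fold change -1.17, adjusted p = 0.469). Its head-to-head partner Col4a3, 71 bases away on chromosome 1, had 0, 10 and 19 counts in CAF and 5, 6 and 0 in normal and was not tested. In the authors' deposited table the log2 fold changes of this pair were -1.07 (Col4a3) and -1.23 (Col4a4), neither past the threshold.

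Collagen VIII is a hexagonal network of vessel walls and wounds, and of its chains Col8a2 was low in every normal library. Col8a2 was at 24.9, 9.52 and 11.4 CPM in CAF and at 0.408, 3.80 and 1.25 CPM in normal. The log2 fold change was 3.27 ± 0.87 (adjusted p = 0.115 in edgeR). Every CAF library was above every normal library, but with normal counts this low the filter required that. Col8a1 was at 4.39, 166 and 206 CPM in CAF and at 4.08, 46.9 and 0 CPM in normal. CAF library 1 lay within the normal range, and the log2 fold change of 3.00 ± 1.46 did not pass (adjusted p = 0.393 in edgeR).

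The FACIT chains held the one gene that passed. Col9a2 encodes a chain of collagen IX, which coats collagen II fibrils in cartilage. The CAF libraries held 81, 322 and 340 of its counts, or 119, 44.4 and 46.0 CPM. The normal libraries held 1, 0 and 3, or 0.408, 0 and 3.75 CPM. Every normal library was too low to count toward the filter, so Col9a2 could be tested only with all 3 CAF libraries above them. The lack of overlap was thus set by the filter and is not separate support. Col9a2 rose in CAF by 5.92 ± 0.93 on the log2 scale (SE), 60.5-fold, with an adjusted p of 0.038 by edgeR. Pooled over each group, the ratio of rates was 49.0 with a 95% counting interval of 19.0 to 180. With 1 library left out its log2 fold change ran from 5.13 to 7.57, and it passed only without normal library 3 (adjusted p = 0.00893), with 0.0661 to 0.220 without each of the others. Against normal library 3 alone, which had the least gland RNA, the log2 fold change was 4.20 (adjusted p = 0.354).

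Col9a2 lies on mm10 chromosome 4 (121039385 to 121055322, plus strand). Its promoter window (RefSeq, GRCm38.p6, chr4:121039316-121039615, plus strand), shown because it is the only chain called, has 3 GGGCGG motifs in capitals on either strand and neither CCAAT nor TATAAA.
Col9a2: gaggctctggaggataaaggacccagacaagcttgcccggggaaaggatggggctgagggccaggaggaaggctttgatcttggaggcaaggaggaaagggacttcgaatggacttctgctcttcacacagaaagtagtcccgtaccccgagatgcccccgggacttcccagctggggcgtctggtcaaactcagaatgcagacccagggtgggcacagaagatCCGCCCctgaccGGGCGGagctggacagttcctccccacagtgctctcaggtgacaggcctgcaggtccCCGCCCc
Its GC content was 61.7%. The GENCODE start given above, 121039385, lies inside this window and before all 3 motifs, because RefSeq places the start further downstream.

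The other chains of collagen IX were also higher in value in CAF. Col9a3 was at 64.4, 36.7 and 41.9 CPM in CAF and at 13.1, 11.4 and 1.25 CPM in normal, with no overlap, its log2 fold change being 2.37 ± 0.64 (edgeR adjusted p = 0.117). Its annotated exons overlap those of Tcfl5 on the opposite strand, and the counting was not stated to use strand. Col9a1 had 0, 28 and 34 counts in CAF and 0 in all normal libraries, below the filter. Pooled over the group its CAF level was 5.45 times the level of 3 counts over the normal group, and 3.80 times it from the mean of the CAF libraries. The ratio has no error on the CAF side and is not a lower bound. Collagen IX is also made by some glia and epithelia, so marker lists are set beside it: the 4 of 7 glial markers with a row took 0.0129%, 0.00877% and 0.00558% of counts in CAF and 0.00221%, 0.00177% and 0.000781% in normal. Most of the CAF share was S100b, which cartilage cells also express and which itself rose (log2 fold change 5.08, edgeR adjusted p = 0.0247). It had 71, 474 and 276 counts in CAF and 2, 2 and 3 in normal. As for Col9a2, every normal library was too low to count toward the filter. S100b could thus be tested only with all 3 CAF libraries above them. Erbb3 had 3, 38 and 39 counts in CAF and 63, 10 and 0 in normal. The part of these cells in the collagen IX values was not tested.

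Col12a1, a FACIT collagen of tendon and of stroma under tension, was at 92.2, 191 and 97.2 CPM in CAF and at 6.94, 10.1 and 48.8 CPM in normal. Every CAF library was above every normal library, and the log2 fold change was 2.60 ± 0.75 (adjusted p = 0.141 in edgeR, and 0.00952 without normal library 3). Without normal libraries 1 and 2 it was 1.45, and with GC correction 2.19 (edgeR adjusted p = 0.258). Col14a1, which binds fibrils through decorin, was at 24.9, 171 and 401 CPM in CAF and at 124, 130 and 199 CPM in normal. The CAF libraries spanned the whole normal range, and the log2 fold change of 0.41 ± 0.79 (adjusted p = 0.866 in edgeR) turned to -0.26 with limma-voom and -0.09 with GC correction. Col16a1 was at 269, 296 and 248 CPM in CAF and at 97.9, 93.7 and 483 CPM in normal. Its log2 fold change was 0.28 ± 0.64 (adjusted p = 0.896 in edgeR), 1.43 without normal library 3 (adjusted p = 0.0208) and -0.78 without normal libraries 1 and 2.

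Collagen VI was the class with most negative values, and none of its 5 tested chains passed. Col6a2, a core chain, was at 433, 690 and 1094 CPM in CAF and at 841, 899 and 3258 CPM in normal. Normal library 3 was far above all others, and the log2 fold change was -1.17 ± 0.63 (adjusted p = 0.452 in edgeR). Col6a1, its partner, was at 96.6, 457 and 783 CPM in CAF and at 451, 462 and 1021 CPM in normal (log2 fold change -0.53 ± 0.70, adjusted p = 0.795). Col6a3, the longest core chain, went the other way in value, at 120, 600.1 and 570 CPM in CAF and 138, 185 and 201 CPM in normal. CAF library 1 was below and the other CAF libraries above the normal range (log2 fold change 1.31 ± 0.58, adjusted p = 0.339 in edgeR). Of the chains that can replace Col6a3, Col6a4 was at 48.3, 22.5 and 8.79 CPM in CAF and at 26.9, 19.0 and 209 CPM in normal, and Col6a5 at 36.6, 29.4 and 63.0 CPM against 32.2, 31.7 and 121 CPM. In all 5 chains normal library 3 was the highest normal library. Without it the class median was -0.0048, and 2 of 5 chains had a positive value, whereas the share of collagen VI among collagen counts, given above, lay outside the CAF range in each normal library.

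The multiplexins Col15a1 and Col18a1, of which the latter is the source of endostatin, also turned on normal library 3. Col15a1 was at 164, 135.9 and 192 CPM in CAF and at 184, 135.5 and 977 CPM in normal (log2 fold change -1.40 ± 0.73, adjusted p = 0.433 in edgeR; -0.04 without normal library 3). Col18a1 was at 1080, 838 and 515 CPM in CAF and at 203, 210 and 1168 CPM in normal. Its log2 fold change was 0.62 ± 0.72 (adjusted p = 0.762 in edgeR), 1.90 without normal library 3 (adjusted p = 0.0283) and -0.48 without normal libraries 1 and 2. Fibroblast markers took 4.51% of counts in normal library 3 and 0.964% and 1.28% in normal libraries 1 and 2, and the part of this difference in the values of normal library 3 was not tested.

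Chains known from stratified epithelium did not pass. Col17a1, a transmembrane collagen of hemidesmosomes, was at 1.46, 3.17 and 4.33 CPM in CAF and at 17.5, 19.0 and 2.50 CPM in normal. Normal library 3 lay among the CAF libraries, and the log2 fold change was -1.98 ± 0.75 (adjusted p = 0.257 in edgeR). Markers of squamous and basal epithelium took 0.128% and 0.203% of counts in normal libraries 1 and 2, 0.0130% in normal library 3 and 0.0137% to 0.0202% in CAF, all 10 being detected in each group. Of these markers Krt5, Krt14 and Krt15 had log2 fold changes of -5.35, -4.65 and -6.13. Krt6a, Itgb4 and Lor had -0.21, 0.14 and 0.97, none passed, and the others were below the filter. Without normal libraries 1 and 2 the log2 fold change of Col17a1 was 0.49. The part of epithelial cells in its values was not tested. Col7a1, the chain of the fibrils that anchor epithelium to the matrix below, was at 161, 75.6 and 33.7 CPM in CAF and at 50.2, 39.3 and 16.3 CPM in normal (log2 fold change 1.30 ± 0.63, adjusted p = 0.393 in edgeR). Col23a1, another transmembrane collagen, was at 5.85, 21.3 and 13.1 CPM in CAF and 7.75, 13.9 and 18.8 CPM in normal (log2 fold change 0.11, adjusted p = 0.959), turning to -0.23 when scaled to fibroblast markers. Col13a1, also transmembrane, had 0, 16 and 15 counts in CAF and 9, 1 and 5 in normal and was not tested.

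Of the 10 chains below the filter, 6 had no count in any normal library, namely Col2a1, Col6a6, Col9a1, Col10a1, Col26a1 and Col28a1. Since the CAF libraries held more counts in all, their levels were set against 3 counts over the normal group. The ratios to this level carry no error on the CAF side and are not lower bounds. Col10a1, the collagen of hypertrophic cartilage, had 4, 121 and 11 counts in CAF. It was at 11.95 times this level in the pooled libraries, but at 2.50 times without CAF library 2. It lies opposite Nt5dc1 with overlapping exons, and strand use was not stated. Col2a1, the main collagen of cartilage, had 5, 24 and 18 counts and was at 4.13 times the level of 3 counts. Col28a1, known from peripheral nerve, had 0, 21 and 13 counts and was at 2.99 times that level. The ratios for Col26a1 and Col6a6 were 1.58 and 1.23. Without CAF library 3, Col6a6 was below the level of 3 counts. Col11a1, the partner of collagen II in cartilage fibrils, had 1, 94 and 50 counts in CAF and 0, 1 and 0 in normal, a pooled ratio of 38.2 with a 95% counting interval of 6.75 to 1520. Col20a1 had 4, 18 and 18 counts in CAF and 11, 2 and 1 in normal. Each of these levels rests on few counts, and CAF library 1, the smallest library, had 0 to 5 counts of each.

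The genes that process collagen were followed in 5 lists, of which 43 genes had rows and 37 were tested. None was called by edgeR, against 1.1% of all genes, while 7 (18.9%) had an unadjusted p under 0.05, against 15.3% of all genes in either direction. All 7 were higher in CAF, where 7.37% of all genes were. DESeq2 called 5 of the processing genes, where it called 7.28% of all genes. The log2 fold change was positive for 32 of 37 genes (86.5%, against 53.9% of all genes), with a median of 0.74 against 0.06. In 9 of the 37 (24.3%), every CAF library was above every normal library, against 10.6% of all genes. Among 18 tested genes of folding and modification (median 0.46, 16 positive), P4ha3, a prolyl 4-hydroxylase subunit, was at 30.7, 70.4 and 61.3 CPM in CAF and at 5.71, 13.9 and 10.0 CPM in normal. That is a log2 fold change of 2.54 (adjusted p = 0.0617 in edgeR), and P3h1, a prolyl 3-hydroxylase, had 1.56 (adjusted p = 0.202). Serpinh1, the collagen chaperone HSP47, was at 1112 to 1962 CPM in CAF and at 453, 446 and 1688 CPM in normal, which overlapped (adjusted p = 0.606; it was named after its values were seen).

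For the 5 tested genes of propeptide removal the median was 0.38, and the genes of smallest p, the procollagen N-proteinase Adamts2 and the C-proteinase Bmp1, had log2 fold changes of 1.47 and 1.05 (adjusted p = 0.393 and 0.420 in edgeR). All 5 lysyl oxidases, which crosslink collagen, had positive values (median 0.92). Loxl2 was at 158, 480 and 419 CPM in CAF and at 44.5, 111 and 96.3 CPM in normal, without overlap (log2 fold change 2.08, adjusted p = 0.104), while Lox, at a log2 fold change of 3.95 (adjusted p = 0.120), overlapped between CAF library 1 (43.9 CPM) and normal library 2 (45.6 CPM). Among 5 tested receptors (median 1.02), Itgb1, the beta subunit of collagen-binding integrins, had 1.29 and the uptake receptor Mrc2 1.02 (adjusted p = 0.205 and 0.529). Among 4 tested genes of collagen degradation (median 3.07), the collagenase Mmp13 was at 32.2, 290 and 108 CPM in CAF and at 0.816, 6.33 and 0 CPM in normal. Its log2 fold change of 6.19 had an adjusted p of 0.0576 by edgeR, and the gelatinase Mmp9 had 4.50 (adjusted p = 0.0607). Without normal library 3, where edgeR called 10% of all genes, it called 14 of these (Adamts2, Bmp1, Fkbp10, Itgb1, Loxl1, Mmp2, Mmp9, Mmp13, Mmp14, Mrc2, P3h1, P3h3, P4ha3 and Serpinh1).

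The library that was extreme within its group was counted for the collagens and for all genes, with no test of the difference. Normal library 3 was the highest of the normal libraries for 20 of 31 chains, or 64.5%, against 38.3% of all genes tested. CAF library 1 was the lowest of the CAF libraries for 18 of 31 chains, or 58.1%, against 46.6% of all genes. Relative to the mean of CAF libraries 2 and 3, on the log2(CPM + 1) scale, CAF library 1 was lowest for Col8a1 (-5.11), Col4a5 (-4.83), Col5a2 (-4.06), Col3a1 (-3.69) and Col14a1 (-3.35), whose 3′ ends have a GC content of 26.2% to 38.2%. It was highest for Col6a4 (1.70) and Col7a1 (1.65), at 52.4% and 58.6% GC. With GC correction 21 of 31 chains had a positive log2 fold change, with a median of 0.86, and Col9a2 was again the chain called (adjusted p = 0.0293 in edgeR).

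**Figure D4:**
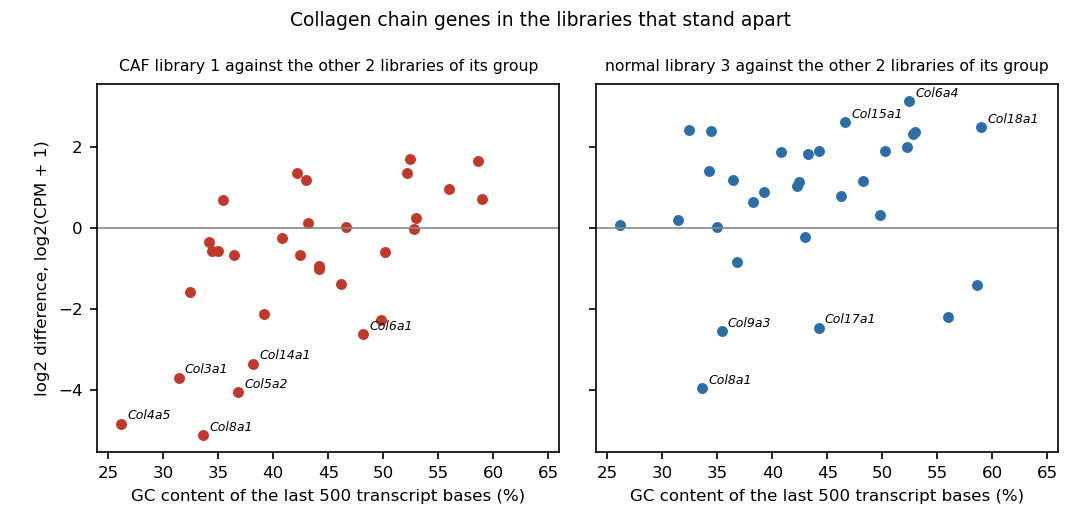
GC content (%) of the last 500 bases of the longest transcript (horizontal axis) against the log2(CPM + 1) difference of CAF library 1 (left) or normal library 3 (right) from the mean of the other 2 libraries of its group, 1 point per tested collagen gene. In CAF library 1 the points run from -5.11 for Col8a1 to 1.70 for Col6a4, with AT-rich genes low (Pearson r = 0.61, n = 31 genes); in normal library 3 most points lie above 0 (r = 0.21).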

How the data were processed

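RNA of 6 libraries (3 CAF, 3 normal) had been sequenced by MARS-seq, which counts 3′ ends. Per the submitters' processing notes, reads were handled with cutadapt, STAR, HTSeq and DESeq2 on mm10; the sources used here give no versions, annotation, strand setting or collapse of molecular identifiers. Raw counts were taken from the 6 count columns of the deposited table. Per the file headers, it also holds a normalized signal (1 factor per library in the values), a regularized log2 value, and the authors' log2 fold change, p-value and adjusted p-value. Normalized signals served only to check the factors and regularized values were not used. The lowest maximum over libraries was 6 counts.

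The test was that of edgeR 4.0.16, run in R 4.3.3 (filterByExpr, trimmed mean of M-values, quasi-likelihood F test on the group, Benjamini-Hochberg over 10148 genes, threshold 0.05). Standard errors come from the fold change and F and are approximate. Floors are 3 counts over a group. Coordinates are from GENCODE vM21 (GRCm38), and promoter windows from RefSeq. Alternatives used DESeq2 1.42.0, limma-voom (limma 3.58.1), other size factors, filters and scalings, left-out libraries and the number of mice; GC-corrected offsets (loess, span 0.5) were chosen after seeing the data. The marker lists were fibroblast, gastric gland, squamous and basal epithelium, smooth muscle and pericyte, endothelium, enteric glia and Schwann, and mesothelium; the last took 0.0178% to 0.0280% of CAF and 0.0390% to 0.0743% of normal counts, mostly Krt19, which epithelium also expresses. Its other 5 genes took 0.0014% to 0.0105% in CAF and 0.000184% to 0.000996% in normal. Some glial markers are not reported singly here.

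Members and lists were chosen with earlier results of these data known. Named are all members, with values per library for called members and, in each class, up to 4 of highest mean CPM and up to 2 of smallest p, and of each processing list called genes or up to 2 of smallest p. On counts simulated for this contrast over 10148 genes, with 50 genes at each size, edgeR called 1 at 2-fold, 24 at 4-fold, 40 at 8-fold and 50 at 32-fold, and 6 unchanged genes. Simulated counts were negative binomial at the fitted trend of dispersion, with no difference in gland RNA or GC trend between libraries of a group. These numbers are therefore not detection rates for the real libraries. There Mmp13, at 72.9-fold, was not called (edgeR adjusted p = 0.0576).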

Additional observations from a re-analysis of the deposited data

How the results depend on the processing

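All 31 chains were refitted under up to 16 alternatives each. Calls are of adjusted p under 0.05. The number of genes higher in CAF was 91 and of genes lower 21. It was 400 and 535 with DESeq2, and 0 and 0 without normal libraries 1 and 2, where 1271 genes had an unadjusted p under 0.05. With limma-voom 49 were higher. Lower were 40 with no filter, 12 with at least 10 counts in 3 libraries, 8 with mouse number as a covariate, 137 when scaled to fibroblast markers and 57 with GC correction. With 1 library left out, from 0 to 412 were higher and from 0 to 781 lower, both highest without normal library 3. Collagen chains called (1) were 9 with DESeq2 and 0 with limma-voom, with the number of mice and without normal libraries 1 and 2, and 0 to 10 with 1 library left out. Processing genes called (0) were 5 with DESeq2, 2 with no filter, 2 when scaled to fibroblast markers, 2 with GC correction and 0 to 14 with 1 library left out.

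Scaling to fibroblast markers moved the median log2 fold change of all genes from 0.06 to -0.23 and that without normal libraries 1 and 2 to 0.29. Col9a2 did not pass with limma-voom (adjusted p = 0.0692) or the number of mice (0.0686). None of the chains that changed sign was called there, and the cause was not tested. Without normal libraries 1 and 2 the log2 fold changes were -0.78 (Col16a1), 0.49 (Col17a1), -0.48 (Col18a1), -0.33 (Col23a1), -0.14 (Col24a1) and -0.18 (Col5a3). With the number of mice they were -0.80 (Col14a1), -0.41 (Col23a1) and -1.03 (Col4a5). Scaled to fibroblast markers they were -0.17 (Col14a1), -0.23 (Col23a1) and -0.67 (Col4a5), and with GC correction -0.085 (Col14a1) and -0.77 (Col4a5). Col14a1 was at -0.26 with limma-voom, and Col4a5 at -0.021 with RLE and -0.091 with DESeq2. With 1 library left out the values ran from -0.56 to 0.92 (Col14a1), -0.10 to 1.43 (Col16a1), -0.38 to 0.41 (Col23a1), -0.35 to 0.50 (Col4a5) and -0.89 to 0.37 (Col6a5), and log2 chain ratios from -0.20 to 0.64 (Col6a1 to Col6a2) and -0.80 to 0.052 (Col3a1 to Col1a1).

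No paired analysis was possible because the labels give the groups no shared replicate numbers. The difference in mean collagen share, 1.48 percentage points, ran from 1.13 to 2.05 with 1 library left out.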
